A study of Mus musculus with 48 samples.

Results

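The 8 genes *Ccl5*, *Ccl3*, *Ccl4*, *Ccl2*, *Cxcl10*, *Il6*, *Il1b* and *Tnf* encode chemokines and inflammatory cytokines, and their expression was followed in the hippocampus (HPC) of mice withdrawn from chronic intermittent ethanol vapor. They are 8 of the 18193 genes that the array names by a single symbol. The genes were chosen by symbol, and the rule took for each the probe set with the highest mean over all 48 arrays, although each of the 8 had exactly 1 such probe set. Their mean level over all mice was therefore the only measured value the rule read. The differences of *Cxcl10*, *Il6*, *Ccl3* and *Ccl4* between treatments at 8 h were known from these data when the genes were put together. Every difference of these 4 genes that involves the ethanol mice of 8 h is therefore given as a description, with no p-value, and calls of these differences are counted only to describe them. The 8 genes as a whole and the gene lists used below were also chosen with earlier results of these data known. Their p-values are therefore not those of an independent test.

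Expression was measured in 48 adult male mice labelled C57BL/6, and C57BL/6J in the protocol, each on its own array, in 8 groups of 6. Mice with chronic intermittent ethanol (CIE) were kept for 16 h a day over 4 days in air holding 10 to 13 mg/l of ethanol vapor and then had 7 days of abstinence, in 4 cycles. Each cycle was started with ethanol at 1.6 g/kg and pyrazole, an inhibitor of alcohol dehydrogenase, at 1 mmol/kg, both injected intraperitoneally. Control (Ctrl) mice breathed air and were injected with saline and the same pyrazole, so no group was free of pyrazole or of handling. The last chamber session was followed by harvest at 0 h, at 8 h, at 72 h or at 7 d, and each harvest has its own Ctrl group, so the 4 groups of 1 treatment are different animals. CIE differs from Ctrl by both the vapor and the injected ethanol, and these cannot be told apart.

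Chemokines are small secreted proteins that draw leukocytes along a gradient and signal through G protein-coupled receptors. CC chemokines such as *Ccl2*, *Ccl3*, *Ccl4* and *Ccl5* act mostly on monocytes, T cells and NK cells, whereas the CXC chemokine *Cxcl10* is induced by interferons and acts on activated T cells through *Cxcr3*. Interleukin 6, interleukin 1 beta and tumor necrosis factor are cytokines of the early inflammatory response, and in brain they are made mainly by activated microglia, with astrocytes and endothelium contributing.

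Values are log2 expression, so a difference of 1 is a 2-fold change, and a level of one gene was not set against that of another because probe sets differ in brightness. The 48 array medians ran from 6.601 to 6.627, and over the 45037 probe sets no pair of arrays correlated below 0.974. The 14 hippocampal neuron markers averaged between 10.4 and 11.2 in 46 mice, but 9.56 and 9.63 in Ctrl mice 18 and 22 of 7 d. Values without these 2 mice are therefore given beside the 7 d results. By exactly equal values, 47 arrays fell into 6 sets that had been normalized together, each holding 1 mouse of every group but for 1 set that lacked Ctrl 0 h, and Ctrl mouse 2 of 0 h fell in none. The values of mouse 2 carry 6 decimals and equality was sought within 1e-08, so its matches could be missed. Whether its array belongs to the set lacking Ctrl 0 h was not tested.

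The DNA just before the start of 3 of these genes is shown because they were higher in CIE mice at 8 h and the sequence table holds them. Each is the 250 bases upstream of the RefSeq start on GRCm38.p6, written 5′ to 3′ on the strand of the gene, at chr5:92348890-92349139 (minus strand) for *Cxcl10*, chr5:30012864-30013113 (plus strand) for *Il6* and chr11:83649379-83649628 (minus strand) for *Ccl3*. Capitals mark matches on either strand to any of 4 motifs, namely the NF-kappaB consensus, the interferon-stimulated response element (GAAA and again GAAA with any 2 bases between), the AP-1 site TGANTCA and the C/EBP site TTNNGNAA.
Cxcl10: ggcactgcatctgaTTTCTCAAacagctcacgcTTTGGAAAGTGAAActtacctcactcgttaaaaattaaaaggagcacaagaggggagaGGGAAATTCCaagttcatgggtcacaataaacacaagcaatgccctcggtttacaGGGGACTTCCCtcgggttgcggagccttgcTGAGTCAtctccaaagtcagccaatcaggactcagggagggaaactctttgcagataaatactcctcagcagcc
Il6: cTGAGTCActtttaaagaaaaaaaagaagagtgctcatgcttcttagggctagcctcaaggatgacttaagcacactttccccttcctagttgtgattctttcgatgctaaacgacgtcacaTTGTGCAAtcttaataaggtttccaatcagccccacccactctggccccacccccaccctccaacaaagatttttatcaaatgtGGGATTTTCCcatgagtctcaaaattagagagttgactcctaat
Ccl3: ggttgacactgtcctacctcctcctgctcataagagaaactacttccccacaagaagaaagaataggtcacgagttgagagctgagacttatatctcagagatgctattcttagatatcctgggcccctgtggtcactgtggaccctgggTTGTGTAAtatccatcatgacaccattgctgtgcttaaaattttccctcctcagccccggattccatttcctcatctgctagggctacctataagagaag

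The *Cxcl10* window held 3 NF-kappaB matches, of which the 2 nearer ones overlap by all but 1 base, and 1 interferon-stimulated response element 213 to 204 bases before the start, which overlaps a C/EBP match. *Il6* held 1 NF-kappaB match 44 to 35 bases before its start, 1 AP-1 and 1 C/EBP match. *Ccl3* held 1 C/EBP match and none of the other motifs in these 250 bases. Of all 32851 RefSeq promoter windows of the same length, 7.25% held the NF-kappaB consensus, 2.98% the response element, 6.75% the AP-1 site and 36.8% the C/EBP site. These matches describe letters and not binding. *Il1b* and *Tnf* held C/EBP matches only, 1 and 2 respectively. A window was found for 5 of the 8 genes.

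The first question was at which harvest the chemokine and cytokine genes differed between CIE and Ctrl mice. At 8 h *Cxcl10*, *Il6*, *Ccl3*, *Ccl4* and *Ccl5* were higher in CIE mice, and *Ccl5* was also called at 0 h and at 7 d. With a gene called where its Benjamini-Hochberg adjusted p (FDR) was at most 0.01, 5 of 8 genes were higher at 8 h, where 1.54% of all probe sets were higher, and nothing is read from this count because 4 of the 5 were known. *Ccl5* was the 1 gene of 8 called higher at 0 h, beside 0.917% of probe sets, and the 1 gene of 8 called higher at 7 d, beside 0.655%. An unadjusted p under 0.05 was seen in 3 of 8 genes at 0 h, 6 of 8 at 8 h and 3 of 8 at 7 d, the third of these at 7 d, *Tnf*, with a negative sign. Except in the 7 d fit that follows, no share over all genes is given for such counts. Nothing is therefore read from them, here or for the gene lists below. Without Ctrl mice 18 and 22, limma called 0 of the 8 genes at 7 d (3 at an unadjusted p under 0.05) and 0 of all 18193 genes (2489 at an unadjusted p under 0.05). At 72 h limma called 0 of 8 genes higher, beside 0.00444% of probe sets called higher, and 0 of 8 had an unadjusted p under 0.05. No gene was called lower at any time. The median log2 difference of the 8 genes was 0.11 (0 h), 0.50 (8 h), 0.063 (72 h) and 0.013 (7 d), against 0.018, 0.00057, 0.01 and 0.013 over all probe sets. Every CIE mouse lay above every Ctrl mouse at 8 h in 4 of the 8 genes, namely *Cxcl10*, *Il6*, *Ccl4* and *Ccl2*, and in 1.88% of all probe sets. In bulk tissue, more cells of a type and more RNA per cell cannot be told apart.

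**Figure D1:**
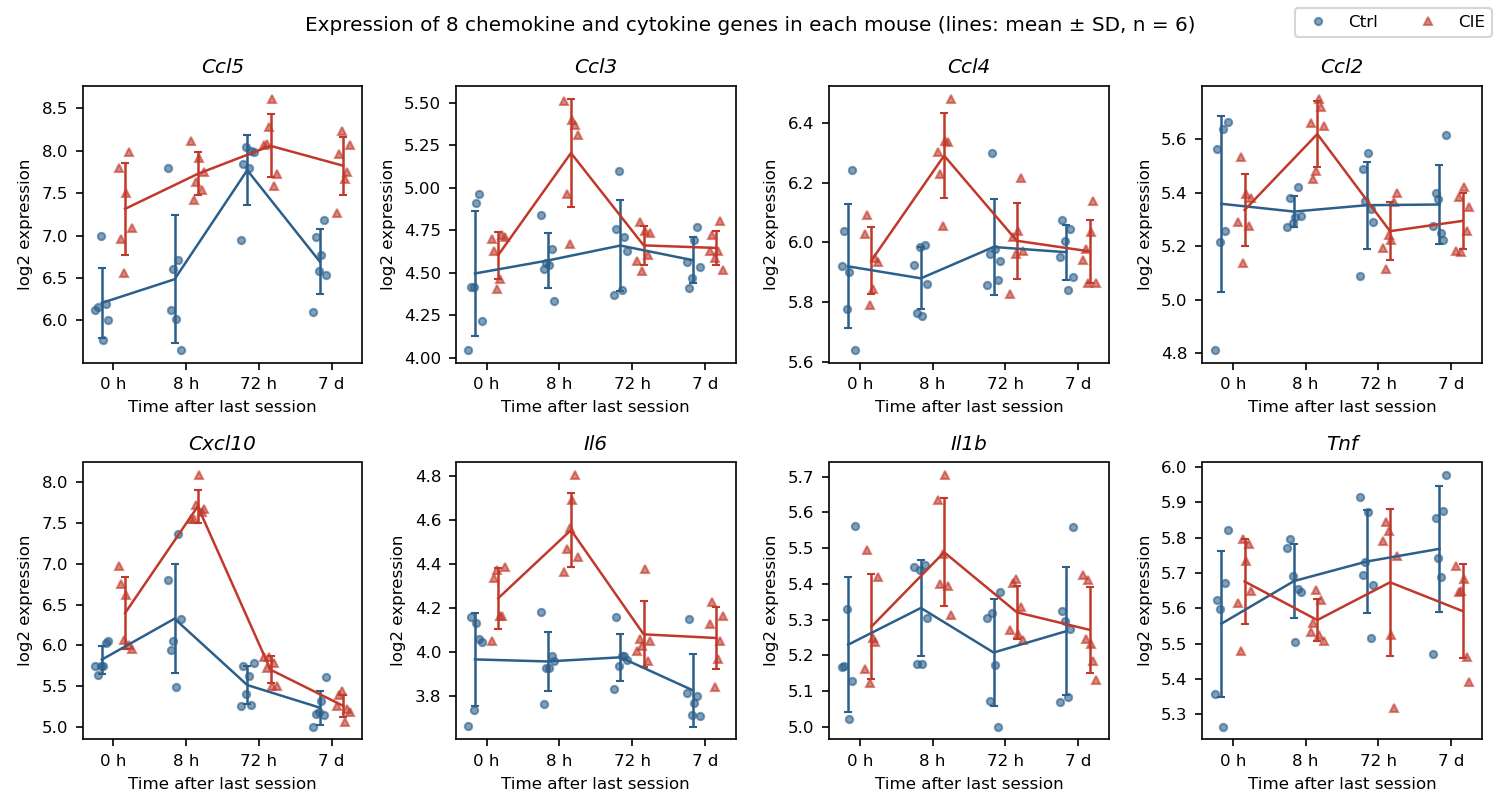
Log2 expression of each gene (y axis) at 4 times after the last session (x axis) in every mouse, with Ctrl as blue circles, CIE as red triangles, and lines joining group means ± SD (n = 6 different mice per point). *Cxcl10*, *Il6*, *Ccl3*, *Ccl4* and *Ccl2* peak in CIE mice at 8 h, *Ccl5* is high in CIE mice throughout and in Ctrl mice at 72 h, and *Il1b* and *Tnf* overlap at every time.

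*Ccl5*, which encodes RANTES, a chemokine for T cells, monocytes and eosinophils that T and NK cells themselves make, was the only one of the 8 genes called at 3 harvests. At 0 h it ran from 5.77 to 6.99 (median 6.14) in Ctrl and from 6.56 to 7.99 (median 7.29) in CIE mice. At 8 h the range was 5.65 to 7.80 (median 6.36) in Ctrl and 7.42 to 8.11 (median 7.69) in CIE mice. The groups overlapped at both times, at 8 h through the single Ctrl mouse 4, whose 7.80 lay among the CIE values. At 7 d Ctrl mice ran from 6.09 to 7.19 (median 6.67) and CIE mice from 7.26 to 8.23 (median 7.86), with no overlap. The log2 difference was 1.11 (SE 0.25, 2.16-fold, adjusted p = 0.00598) at 0 h, 1.24 (SE 0.25, 2.37-fold, adjusted p = 0.0015) at 8 h and 1.13 (SE 0.25, 2.19-fold, adjusted p = 0.00674) at 7 d. CIE exceeded Ctrl in 4 of 5 array sets at 0 h and in 6 of 6 at 8 h and at 7 d.

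The *Ccl5* calls at 0 h and 7 d lay close to the threshold. With the array set as a block, a fit that drops Ctrl mouse 2 of 0 h, they were lost (adjusted p = 0.0294 and 0.0151), at differences of 1.12 and 1.13. Without Ctrl mice 18 and 22, which had low neuron markers, the 7 d difference was 1.06 (SE 0.28, adjusted p = 0.0665). When only the 12 mice of a time were fitted, the 8 h call was lost too (adjusted p = 0.025). Leaving out 1 mouse ended the 0 h call for Ctrl mice 2, 12, 38, 56 and 64 and CIE mice 11, 57 and 67 (differences from 0.97 to 1.10 without these, adjusted p up to 0.0197), and the 7 d call for Ctrl mice 18, 22, 46, 54 and 80 and CIE mice 9, 27, 45 and 59 (1.01 to 1.19, adjusted p up to 0.0305).

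At 72 h the *Ccl5* level of Ctrl mice met that of CIE mice. Ctrl values ran from 6.95 to 8.05 (median 7.92) and CIE values from 7.59 to 8.61 (median 8.07), a difference of 0.29 (95% interval -0.22 to 0.80, adjusted p = 0.793). Ctrl mice of 72 h were higher than those of 8 h by 1.29 (SE 0.25, adjusted p = 0.00767), where 0.113% of probe sets were called and *Ccl5* was the 1 gene of 8. This call was lost with the array set as a block (adjusted p = 0.0241) and without any 1 of Ctrl mice 8, 32, 42, 66 and 79 of 8 h or 16, 24, 44, 52 and 68 of 72 h (1.12 to 1.33 without these, adjusted p up to 0.0467). Ctrl mice of 7 d were lower than those of 72 h by 1.08 (SE 0.25), which missed the threshold (adjusted p = 0.0268) except without Ctrl mouse 70 of 7 d (adjusted p = 0.00823). In order of group mean, *Ccl5* stood at 8.06 ± 0.37 in CIE 72 h, 7.82 ± 0.34 in CIE 7 d, 7.77 ± 0.41 in Ctrl 72 h, 7.73 ± 0.25 in CIE 8 h and 7.31 ± 0.54 in CIE 0 h (SD, n = 6). Ctrl mice followed at 6.69 ± 0.38 for 7 d, 6.48 ± 0.75 for 8 h and 6.21 ± 0.42 for 0 h. Within each of these 2 runs, neighbours lay closer than the larger of their SDs. The change of the CIE effect on *Ccl5* between times was not called for any of the 6 pairs of times. Its largest value was 0.96 (SE 0.36, adjusted p = 0.376), for 8 h minus 72 h.

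*Ccl3* and *Ccl4*, which encode the macrophage inflammatory proteins MIP-1 alpha and MIP-1 beta, are neighbours on mouse chromosome 11 and moved with each other. *Ccl3* ran at 8 h from 4.33 to 4.84 (median 4.55) in Ctrl and from 4.67 to 5.51 (median 5.34) in CIE mice, and 1 CIE mouse, number 23, fell inside the Ctrl range. *Ccl4* ran from 5.75 to 5.99 (median 5.89) in Ctrl and from 6.05 to 6.48 (median 6.32) in CIE mice, with no overlap. The differences were 0.63 (SE 0.13, 1.55-fold) for *Ccl3* and 0.41 (SE 0.08, 1.33-fold) for *Ccl4*, and each was positive in 6 of 6 array sets. At the other times the groups overlapped in both genes and the differences lay between 0.00096 and 0.11 for *Ccl3* and between 0.0028 and 0.021 for *Ccl4*. The *Ccl3* value at 72 h and the 3 *Ccl4* values turned sign under other settings. Without mice 18 and 22 the 7 d differences were 0.029 for *Ccl3* and 0.026 for *Ccl4*. Among Ctrl mice neither gene was called, with steps between harvests of at most 0.11 in size.

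*Ccl2*, which encodes MCP-1, the main attractant of *Ccr2* monocytes, ran at 8 h from 5.27 to 5.42 (median 5.31) in Ctrl and from 5.45 to 5.75 (median 5.66) in CIE mice. The groups did not overlap, and CIE was higher in 6 of 6 array sets. The difference of 0.29 (SE 0.09, 95% interval 0.10 to 0.48) nonetheless missed the threshold (adjusted p = 0.0587), and it was called with array weights (adjusted p = 0.00804). *Ccl2* showed differences of -0.023, -0.097 and -0.061 (-0.071 without mice 18 and 22) at 0 h, 72 h and 7 d, all with overlap. At 0 h its Ctrl mice spread most widely, from 4.81 to 5.66, and the lowest was mouse 2, whose array could not be placed in a set.

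*Cxcl10*, which encodes IP-10, had the largest CIE difference of the 8 genes at 8 h. It ran at 0 h from 5.63 to 6.06 (median 5.74) in Ctrl and from 5.96 to 6.98 (median 6.34) in CIE mice. At 8 h it ran from 5.48 to 7.36 (median 6.19) in Ctrl and from 7.55 to 8.09 (median 7.65) in CIE mice. CIE mice of 8 h lay above every other mouse, although their own spread (SD 0.20) was smaller than that of the Ctrl mice of that time (SD 0.67). By 72 h the ranges were 5.26 to 5.78 in Ctrl and 5.50 to 5.85 in CIE mice, and at 7 d they were 5.0 to 5.60 and 5.06 to 5.43. Both groups thus overlapped at 72 h and 7 d. The CIE difference was 0.57 (SE 0.18, adjusted p = 0.0516) at 0 h, 1.38 (SE 0.18, 2.60-fold) at 8 h, 0.19 (SE 0.18, adjusted p = 0.821) at 72 h and 0.022 (SE 0.18, adjusted p = 0.969) at 7 d, the last changing sign when mice 18 and 22 were left out (-0.056).

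The group mean of *Cxcl10* also differed between harvests in Ctrl mice, which breathed air only, but without a called step in the main fit. The Ctrl mean was 5.82 ± 0.17 at 0 h and 6.33 ± 0.67 at 8 h (SD, n = 6), and then 5.51 ± 0.24 at 72 h and 5.23 ± 0.21 at 7 d. The step from 0 h to 8 h was 0.50 (SE 0.18, adjusted p = 0.0998) and that from 8 h to 72 h was -0.81 (SE 0.18, adjusted p = 0.0296), so neither was called, although the second was called without Ctrl mouse 42 of 8 h (-0.98). In the CIE mice the same steps were 1.31 (SE 0.18) and -2.0 (SE 0.18, 4.01-fold), each with no overlap between the groups and the same sign in 6 of 6 array sets.

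*Il6*, which encodes interleukin 6, a cytokine that signals through *Il6st* and STAT3, ran at 8 h from 3.77 to 4.18 (median 3.95) in Ctrl and from 4.37 to 4.81 (median 4.52) in CIE mice. The groups did not overlap. The difference was 0.60 (SE 0.09, 1.51-fold), in 6 of 6 array sets. *Il6* ran at 0 h from 3.67 to 4.16 in Ctrl and from 4.05 to 4.39 in CIE mice, and at 7 d from 3.71 to 4.15 and from 3.84 to 4.23. The groups overlapped at both times, with differences of 0.28 (SE 0.09, adjusted p = 0.0489) at 0 h and 0.24 (SE 0.09, adjusted p = 0.097) at 7 d. The 7 d difference was 0.32 (SE 0.09, adjusted p = 0.0955) without mice 18 and 22. Its 72 h difference was 0.10 (SE 0.09, adjusted p = 0.781). The mean of *Il6* over all arrays was 4.08, at or below which lay 13.3% of probe sets, so a filter that drops the dimmest 25% removes it, and the same holds for *Ccl3* (23.0%).

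*Il1b*, which encodes interleukin 1 beta, the cytokine released by the inflammasome, was not called at any time. It ran at 8 h from 5.17 to 5.45 (median 5.37) in Ctrl and from 5.31 to 5.70 (median 5.44) in CIE mice, with overlap. The difference was 0.16 (95% interval -0.014 to 0.33, adjusted p = 0.334), and differences at the other times lay between 0.0038 and 0.11. *Tnf*, which encodes tumor necrosis factor, ran at 8 h from 5.51 to 5.80 (median 5.67) in Ctrl and from 5.51 to 5.65 (median 5.55) in CIE mice. The difference was -0.11 (95% interval -0.29 to 0.065, adjusted p = 0.557), and CIE was higher in 1 of 6 array sets. At 7 d *Tnf* differed by -0.18 (95% interval -0.35 to -0.0012, adjusted p = 0.241), and by -0.23 without mice 18 and 22 (adjusted p = 0.228), where *Il1b* was -0.032. The intervals of *Tnf* and *Il1b* at 8 h reach changes of at most 0.33 in size.

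**Figure D2:**
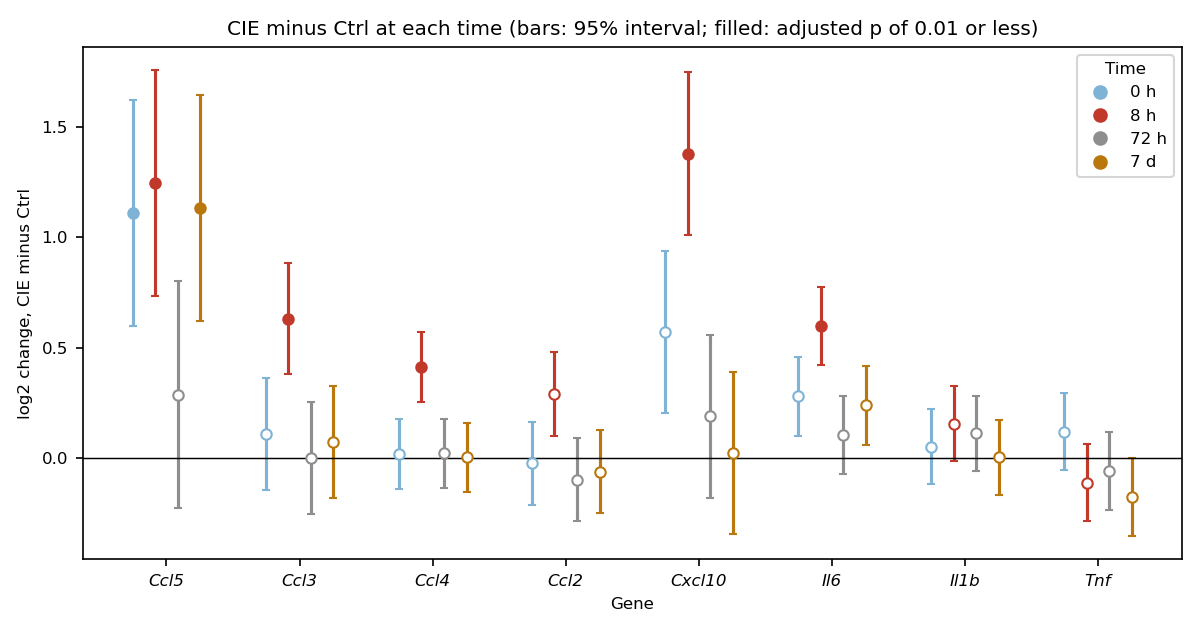
Log2 change, CIE minus Ctrl (y axis), for each gene (x axis) and time (colour), with bars giving the 95% interval of the limma fit and filled points an adjusted p of 0.01 or less. The filled points are *Ccl5* at 0 h, 8 h and 7 d and *Ccl3*, *Ccl4*, *Cxcl10* and *Il6* at 8 h, while intervals at 72 h all cover 0.

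The levels at successive harvests were also compared within each treatment. Among CIE mice, limma called 3 of 8 genes higher at 8 h than at 0 h (*Cxcl10*, *Ccl3* and *Ccl4*), beside 2.86% of probe sets in either direction. From 8 h to 72 h it called 3 of 8 lower (*Cxcl10*, *Il6* and *Ccl3*), beside 2.62%. *Ccl3* moved by 0.60 (SE 0.13) and then by -0.54 (SE 0.13), *Ccl4* by 0.35 (SE 0.08) and -0.29 (SE 0.08), and *Il6* by 0.31 (SE 0.09) and -0.47 (SE 0.09). The call of the first *Ccl4* step was lost without CIE mouse 43 of 0 h (0.32) or 69 of 8 h (0.31), its second step was called without CIE mouse 23 of 8 h (-0.33), and the call of the second *Ccl3* step was lost without CIE mice 15, 25, 41 or 69 of 8 h or 3, 33 or 61 of 72 h (-0.48 to -0.53). *Ccl2* moved by 0.28 (SE 0.09, adjusted p = 0.0515) and by -0.36 (SE 0.09, adjusted p = 0.0119) without a call, although its CIE groups of 8 h and 72 h did not overlap and the second step was called with the array set as a block (adjusted p = 0.00411). From 72 h to 7 d in CIE mice 0 of 8 genes were called (0.00666% of probe sets) and 1 of 8 had an unadjusted p under 0.05. In Ctrl mice *Ccl5* was the 1 of 8 genes called from 8 h to 72 h, as given above, while the same step in CIE mice was 0.33 (SE 0.25, adjusted p = 0.528). Ctrl mice gave 0 of 8 calls from 0 h to 8 h (1.12% of probe sets) and from 72 h to 7 d (0.0799%), with 1 of 8 at an unadjusted p under 0.05 in each.

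Whether the CIE effect itself differed between times was tested as a difference of differences. Only *Cxcl10* was called, 1 of 8 genes, with an effect larger at 8 h than at 7 d by 1.36 (SE 0.26), where 0.0533% of probe sets were called. This value uses the CIE mice of 8 h and is given as a description. Its call was lost with the array set as a block (1.36), without mice 18 and 22 (1.43), in the fit of the 4 groups compared and without any 1 of 18 of the 24 mice (1.19 to 1.39). For 8 h minus 72 h the *Cxcl10* value was 1.19 (SE 0.26) and 0 of 8 genes were called (0.0222% of probe sets), with 6 of 8 at an unadjusted p under 0.05. For 8 h minus 0 h it was 0.81 (SE 0.26), again with 0 of 8 called (0.0333%) and 5 of 8 at an unadjusted p under 0.05. The 3 pairs of times without 8 h gave 0 of 8 calls each, where 0.0355% (72 h minus 0 h), 0.06% (7 d minus 0 h) and 0% (7 d minus 72 h) of probe sets were called, and 1, 2 and 1 of 8 had an unadjusted p under 0.05. A call at 8 h and none at 0 h in *Il6*, *Ccl3* and *Ccl4* is therefore not shown to be a difference between these times.

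Beside the group means, the genes were compared mouse by mouse as deviations from the mean of the group. Of the 28 pairs of genes, 21 had a positive correlation and 1 passed an adjusted p of 0.05. This was *Ccl3* with *Ccl4*, with Pearson r = 0.58 (permutation p = 0.00057, adjusted over the 28 pairs 0.016) and Spearman rho = 0.53 (permutation p = 0.00066, adjusted 0.0185) over 48 mice. It was 0.46 without the 2 mice farthest from the median of *Ccl3*, and ran from 0.18 to 0.76 within the 6 array sets. *Cxcl10* and *Il6*, both highest in CIE mice at 8 h, had r = 0.052 within groups (permutation p = 0.726). *Cxcl10* and *Il1b* had r = 0.39 (permutation p = 0.00662, adjusted 0.0739), positive in 8 of 8 groups and in 5 of 6 sets.

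*Ccl5* went with the markers of T and NK cells. Their mean over 15 genes, none of them a member of the 8, correlated with *Ccl5* within groups at r = 0.78 and rho = 0.71 over 48 mice, each with a permutation p of 1e-05, the smallest that 100000 permutations can give. It was 0.695 without the 2 mice farthest from the median marker mean, lay between 0.63 and 0.89 within the 6 array sets, and was positive in 8 of 8 groups. At 8 h the marker mean ran from 5.39 to 5.64 in CIE and from 5.0 to 5.37 in Ctrl mice, with no overlap, and Ctrl mouse 4, highest in *Ccl5* among its group, also had the highest marker mean. Ctrl mice of 72 h had *Ccl5* at 7.77 ± 0.41 with a marker mean of 5.23 ± 0.04 (SD, n = 6). CIE mice of 8 h had a like *Ccl5* of 7.73 ± 0.25 with a marker mean of 5.48 ± 0.09. The marker mean was lower in the other Ctrl groups, at 5.06 ± 0.08 for 0 h, 5.13 ± 0.14 for 8 h and 5.12 ± 0.04 for 7 d. The part of these cells in the *Ccl5* level was not tested.

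**Figure D3:**
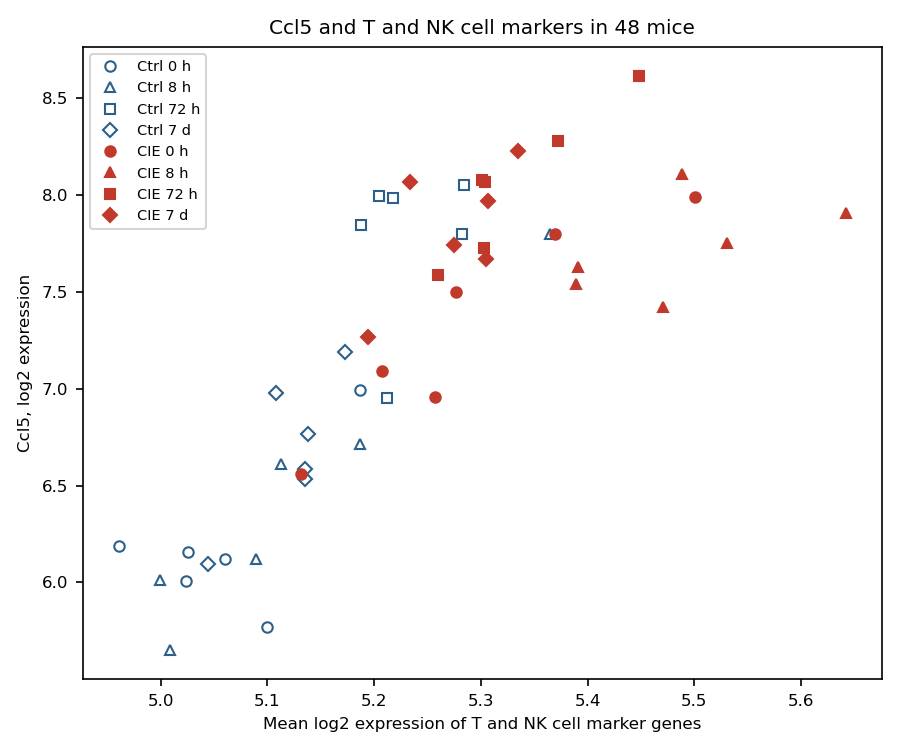
*Ccl5* (y axis, log2 expression) against the mean log2 expression of 15 T and NK cell marker genes (x axis) in 48 mice, with shape for time, open blue for Ctrl and filled red for CIE. Both rise together across mice, and all Ctrl mice of 72 h but mouse 6 (6.95) lie at a *Ccl5* level of 7.80 or more, at marker means from 5.19 to 5.28.

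Over all 48 arrays, with group differences included, the 3 other genes most like each member were as follows, as a description in which all points share the 8 groups and the 6 array sets. *Ccl5* was most like *Ms4a4b* (Pearson r = 0.86), *Nkg7* (0.85) and the chemokine receptor *Cxcr6* (0.81). *Cxcl10* was most like *Ifi47* (0.92), *Trim21* (0.91) and *Irgm1* (0.90), which are interferon-inducible genes. *Ccl3* was most like *Gzmb* (0.69), *Cst7* (0.67) and *Myl4* (0.67), and *Ccl4* like *Aldh18a1* (0.71), *Foxd4* (0.65) and *Gzmb* (0.64), so that granzyme B appeared in both. *Il6* was most like *Birc3* (0.80), *Slc11a1* (0.79) and *Dpp8* (0.79). The coefficients were between 0.66 and 0.64 for *Ccl2* (*Sh2d6*, *Prss40* and *Ucn3*), between 0.65 and 0.65 for *Il1b* (*Trim14*, *1700123O12Rik* and *BC023105*) and between 0.62 and 0.60 for *Tnf* (*Sectm1b*, *Enox2* and *5730405A17Rik*).

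Other chemokines and their receptors were largely without calls. Of 14 other CC chemokines measured, 1 was higher in CIE mice at 8 h, *Ccl12*, a mouse ligand of *Ccr2*, at 8.33 ± 0.34 against 6.84 ± 1.00 in Ctrl (2.81-fold, adjusted p = 0.000167). At 7 d 1 of the 14 was higher, *Ccl9*, by 0.52 (SE 0.11, adjusted p = 0.00401). Of 15 CXC, CX3C and XC chemokines, 1 was called at 8 h, *Cxcl5*, a neutrophil attractant, lower by -0.72 (SE 0.18, adjusted p = 0.00889). At 8 h, 6 of these 15 had an unadjusted p under 0.05, 5 higher and 1 lower. The same was seen in 3 of the 14 other CC chemokines and 5 of 20 chemokine receptors, all higher. *Cxcr6* was the 1 of 20 chemokine receptors called at 8 h, higher by 0.42 (SE 0.10, adjusted p = 0.00751), and the 1 of 20 at 7 d, by 0.49 (SE 0.10, adjusted p = 0.004). Without mice 18 and 22 neither 7 d call held, at 0.44 for *Ccl9* (adjusted p = 0.0692) and 0.50 for *Cxcr6* (adjusted p = 0.0384). Of all 18193 genes, 1.27% were called higher at 0 h, 1.65% at 8 h and 0.879% at 7 d, and 0.374%, 0.66% and 0.165% lower.

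Genes upstream and downstream of the members were called one by one. Among 20 inducers of *Cxcl10* and *Ccl5* (interferon receptors, nucleic acid sensors and their factors), 3 rose at 0 h, 2 at 8 h and 1 at 7 d, and 10, 7 and 4 had an unadjusted p under 0.05. These were the sensor *Tlr7* at 0 h (0.72, SE 0.10, adjusted p = 4.15e-05) and 8 h (0.53, SE 0.10, adjusted p = 0.000947), the receptor chains *Ifnar2* and *Ifngr1* at 0 h (0.27 each), the transcription factor *Irf1* at 8 h (0.74, SE 0.13, adjusted p = 0.000303) and the sensor *Tlr3* at 7 d (0.56, SE 0.11, adjusted p = 0.00297). Of 29 NF-kappaB pathway and target genes, 2 rose at 8 h, the adhesion molecule *Icam1* (0.55, SE 0.11) and *Birc3* (0.36, SE 0.09). At 7 d limma called 0 of the 29, with 15 at an unadjusted p under 0.05 (13 higher, 2 lower) and 10 without mice 18 and 22 (8 higher, 2 lower). *Lcn2*, which encodes lipocalin 2, was the 1 of 17 STAT3 feedback and acute phase genes called at 8 h (0.44, SE 0.09), with 6 at an unadjusted p under 0.05 (5 higher, 1 lower). Of 11 genes listed as receptors and decoys for interleukin 6, interleukin 1 and tumor necrosis factor, limma called 0 at 0 h and 8 h, with 2 and 1 at an unadjusted p under 0.05. At 7 d it called 1, *Osmr* (0.76, SE 0.17), which encodes the oncostatin M receptor and not one for these cytokines. Without mice 18 and 22 the 7 d calls of *Osmr* (0.54, adjusted p = 0.14) and *Tlr3* (0.35, adjusted p = 0.0942) were lost. Among 7 inflammasome genes only *Gsdmd*, the pore-forming gasdermin D, was called, higher at 0 h (0.35, SE 0.07) and at 8 h (0.35, SE 0.07). Of the 7, 3 at 0 h, 6 at 8 h and 4 at 7 d were higher at an unadjusted p under 0.05. Without mice 18 and 22 this held for 1 at 7 d. *Tnfsf10*, which encodes TRAIL, was the 1 of 32 other cytokines called at 8 h (0.56, SE 0.10). At 72 h no gene of these 9 lists was called by limma, and the lists held between 0 and 5 genes at an unadjusted p under 0.05.

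Markers of other cells moved beside these genes, and their part in the results was not tested. Of 15 T and NK cell markers, 5 rose at 8 h, including the T cell receptor chain gene *Cd3g* (0.84, SE 0.13), *Gzmb* (0.67, SE 0.11), which encodes granzyme B, and the NK receptor gene *Klrd1* (0.75, SE 0.14), and 1 at 0 h, *Cd3d* (0.47, SE 0.09). At 7 d 0 of the 15 were called while 7 had an unadjusted p under 0.05 (6 higher, 1 lower), and the marker mean ran from 5.19 to 5.33 in CIE and from 5.04 to 5.17 in Ctrl mice. Of 13 microglia markers 0 were called at 8 h (3 at an unadjusted p under 0.05), with means from 8.72 to 8.93 in CIE and from 8.64 to 8.94 in Ctrl mice. At 7 d 2 of the 13 rose, *Olfml3* (0.45, SE 0.09) and *Tmem119* (0.40, SE 0.09), and the means ran from 8.80 to 9.18 in CIE and from 8.51 to 8.85 in Ctrl mice. An unadjusted p under 0.05 with a higher level in CIE mice was seen at 7 d in 10 of 13 microglia, 8 of 10 astrocyte and 6 of 8 border macrophage markers, and without mice 18 and 22 in 7, 1 and 2 of them. Both microglia calls were then lost, at 0.40 for *Olfml3* (adjusted p = 0.0492) and 0.30 for *Tmem119* (adjusted p = 0.125). Of 8 border macrophage markers 1 rose at 8 h, *F13a1* (0.68, SE 0.14), of 11 neutrophil and monocyte markers 1, *Lcn2*, and of 10 astrocyte markers 1, *Slc1a2* (0.20, SE 0.05). For 9 endothelium, 4 blood cell and 14 neuron markers limma called 0 at every time, with between 0 and 4 of a list at an unadjusted p under 0.05. Of 10 choroid plexus markers *Kl* was higher at 7 d by 1.05 (SE 0.22), or 0.65 without mice 18 and 22 (adjusted p = 0.114). *Otx2* differed at 0 h by -1.21 (SE 0.28), at 3.71 ± 0.13 in CIE and 4.92 ± 1.34 in Ctrl mice (SD). Its group means at the other times lay between 3.57 and 3.81 in both treatments, so the high and uneven group was Ctrl 0 h.

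**Figure D4:**
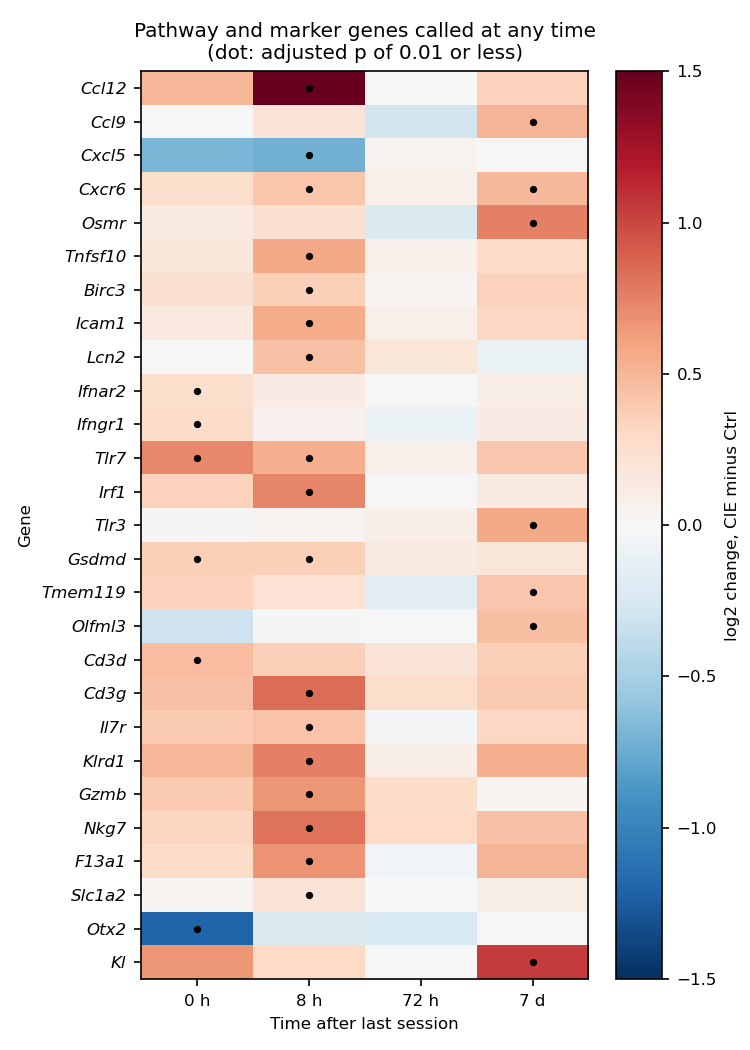
Log2 change, CIE minus Ctrl (colour), of every pathway or marker gene called at any time (rows) at the 4 times (columns), with a dot where the adjusted p was 0.01 or less. Most dots lie at 8 h and none at 72 h, and no dot at 7 d held without Ctrl mice 18 and 22.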

How the data were processed

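RNA from the hippocampus of 48 individual mice was measured on Affymetrix Mouse Genome arrays. The deposited values are log2 expression per probe set, which the authors made by robust multi-array average (RMA) background correction and quantile normalization within each hybridization batch, a further quantile normalization over all arrays, and ComBat for the batch. ComBat removes batch means, and the main fit has no term for them. Its residual spread can therefore be too small, also where batch and group are not linked. With the array set as a block, a fit that also drops the Ctrl mouse in no set, the CIE minus Ctrl differences at 7 d were unchanged. Their SE rose for *Ccl5* (0.2537 to 0.2689), *Cxcl10* (0.1821 to 0.194), *Ccl4* (0.07846 to 0.08407), *Il6*, *Il1b* and *Tnf*. It fell for *Ccl2* (0.09328 to 0.07891) and *Ccl3* (0.1252 to 0.1249). Array identity with a batch is not given in the labels and was read from exactly equal values (at least 5, found within 1e-08) on arrays normalized together. The number of arrays limits precision, and single mice are the replicates.

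A model with 8 group means was fitted to all 45037 probe sets with limma 3.58.1 in R 4.3.3 (lmFit and eBayes), with p-values adjusted by Benjamini-Hochberg over all probe sets in each comparison. A result was called at an adjusted p of 0.01 or less, the threshold of the study's methods. Of the probe sets, 34945 had 1 symbol in the platform annotation, 932 several and 9160 none, and list genes were represented by the single-symbol probe set with the highest mean. The text names all 8 members, up to 3 called genes with the smallest p of each list at each time, and the 3 genes most like each member. The 8 members and all lists were chosen with earlier results of these data known. The fit was checked on simulated data. Correlations between genes used 100000 permutations within groups. Promoter windows came from RefSeq (GRCm38.p6), searched on both strands. Alternatives were a block for the array set, repeated quantile normalization, no dim probe sets, trended and robust eBayes, array weights, only the compared groups, a threshold of 0.05, each mouse left out and, added after seeing the data, both Ctrl mice of 7 d with low neuron markers left out, signs within array sets and the pairs of times without 8 h.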

Additional observations from a re-analysis of the deposited data

Results flagged for a closer look

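In 6 of the 64 gene-by-group sets of 6 mice, 1 mouse stood apart from the other 5, with a gap to its nearest neighbour larger than the 95% critical share of the range in Dixon's test. Chance alone marks about 1 in 20 such sets. *Ccl5* was 6.9940 in Ctrl mouse 20 of 0 h, where the next highest was 6.1873. *Ccl5* was 6.9504 in Ctrl mouse 6 of 72 h, below the next lowest at 7.7960. *Cxcl10* was 8.0883 in CIE mouse 25 of 8 h, with 7.7256 next. *Ccl4* was 6.3001 in Ctrl mouse 24 of 72 h, with 5.9775 next. *Il6* was 4.3799 in CIE mouse 35 of 72 h, with 4.0617 next. *Il6* was 4.1495 in Ctrl mouse 22 of 7 d, one of the 2 mice with low neuron markers, with 3.8137 next.

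The CIE effect on *Cxcl10* was larger at 8 h than at 7 d by 1.3553 on the log2 scale, a difference of differences that passed the threshold of the limma fit but not with the array set as a block.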

How the results depend on the processing

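The 8 h differences of *Cxcl10*, *Il6* and *Ccl4* were called under every alternative that could measure them, and all 5 calls at 8 h held whichever of the 12 mice of that time was left out. The 8 h differences of *Cxcl10*, *Il6*, *Ccl3* and *Ccl4* were known beforehand, so this only describes them and lends no support. In fits of only the compared groups, 3 of 8 genes were called at 8 h, the *Ccl3* and *Ccl5* calls being lost, and 0 at 0 h, at 7 d, for the effect at 8 h minus 7 d and for Ctrl 72 h minus 8 h. Those fits have fewer samples. Without the dimmest 25% of probe sets 3 were called at 8 h, since that filter removes *Il6* and *Ccl3*. With the array set as a block, which drops Ctrl mouse 2 of 0 h, 0 were called at 0 h, at 7 d, for 8 h minus 7 d and for Ctrl 72 h minus 8 h. With array weights 0 were called at 0 h, 3 for 8 h minus 72 h and 5 for CIE 72 h minus 8 h. At a threshold of 0.05 the counts were 2 at 0 h, 1 for 8 h minus 72 h, 2 for Ctrl 72 h minus 8 h, 1 for Ctrl 7 d minus 72 h and 5 for CIE 72 h minus 8 h. Without both Ctrl mice of 7 d with low neuron markers 0 were called at 7 d and for 8 h minus 7 d. Quantile normalization again and trended, robust eBayes left all 16 counts within 1.5 times the value given. The cause of these changes was not tested. Except for the 7 d fit without both Ctrl mice with low neuron markers, no share over all genes is given under these settings. Whether the counts stand out from those over all genes was therefore not tested, here or with 1 mouse left out.

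Leaving out 1 mouse gave between 0 and 1 called genes at 0 h, at 7 d, for 8 h minus 72 h, for 8 h minus 7 d, for Ctrl 72 h minus 8 h and for Ctrl 7 d minus 72 h. The *Cxcl10* effect at 8 h minus 7 d lost its call without any 1 of 18 of 24 mice, namely Ctrl 8, 32, 42 and 79 and CIE 15, 21, 23, 25, 41 and 69 of 8 h, and Ctrl 22, 54 and 80 and CIE 7, 9, 37, 45 and 59 of 7 d, with values from 1.19 to 1.39. For 8 h minus 72 h it gained one without Ctrl mouse 66 of 8 h (1.40).

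Signs turned only for differences that were not called. *Ccl3* at 72 h was -0.0027 after quantile normalization again and between -0.057 and 0.088 with 1 mouse left out. *Cxcl10* at 7 d was -0.050 with array weights, -0.056 without both low-neuron mice and between -0.024 and 0.097 with 1 mouse left out. *Il1b* at 7 d was -0.026, -0.032 and between -0.036 and 0.062 in the same order. With 1 mouse left out *Ccl2* at 0 h ran from -0.13 to 0.038, *Ccl4* from -0.036 to 0.084 at 0 h, from -0.022 to 0.084 at 72 h and from -0.031 to 0.024 at 7 d, and *Tnf* at 72 h from -0.10 to 0.012. Using other probe sets of a gene gave no value because each gene had 1. No paired analysis was possible because the mouse numbers differ between the groups, other than the block for the array set and the signs within sets.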
